A study of Mus musculus with 30 samples.

Results

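The step from 1 h to 2 h of cycloheximide in CGR8 mouse embryonic stem cells was examined across all genes. It was read from the 3 libraries taken at 1 h and the 3 taken at 2 h (replicates A, B and C of each), which are 6 of the series' 30 libraries. The study followed protein synthesis inhibition over time in CGR8 and in the NIH/3T3 fibroblast line. Every CGR8 library came from cells with the genotype ROSA26 SLT knock-in, grown in N2B27 medium with 2i and LIF, and both groups had received cycloheximide at 0.1 µg/mL, and they differ by label in time. Neither group is untreated, and a change here is a change between treated cells. Whether the knock-in line is a single clone, and whether replicates were separate cultures, is not given in the labels. The p-values of the step measure only the spread between replicate libraries, which may be technical. That spread was estimated over all 15 CGR8 libraries, those of the other times included. The NIH/3T3 libraries of 1 h and 2 h, which carry the same genotype label and dose, serve as the comparison line.

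Cycloheximide binds the ribosome and blocks the elongation step of translation. When translation is slowed, short-lived proteins are lost first, among them inhibitors of signalling and proteins that speed the decay of unstable mRNAs. Immediate-early genes such as Fos and Egr1 are known to rise quickly under the drug. Embryonic stem cells in 2i and LIF are held in the naive state by a network of transcription factors, in which LIF acts through STAT3 and Kruppel-like factors. Genes under the transcription factor ATF4 respond to amino-acid supply and to stress of the endoplasmic reticulum (ER).

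The libraries showed the markers of their labelled cell type, and the 2 h libraries were spread widely. Levels are given in CPM, the count of a gene scaled to the size of its library. All 7 stem cell markers checked lay between 285 and 1490 CPM, against at most 0.727 CPM for the fibroblast collagen Col1a1 and 0.046 CPM for Col3a1. Fn1, also on the fibroblast list, lay at 515 to 996 CPM. Of the markers of primitive endoderm, trophoblast, neural progenitor, mesoderm and 2-cell-like cells, Sox7 alone passed the test between the times, and it was lower at 2 h. Summed, the 7 stem cell markers lay at 4930 to 5220 CPM at 1 h and 5250 to 6270 CPM at 2 h, without overlap, and none was called. Summed over each list, the 7 primitive endoderm markers lay at 4.51 to 5.61 CPM at 1 h and 3.23 to 3.89 CPM at 2 h, the 6 trophoblast markers at 27.6 to 32.3 and 21.6 to 26.7, and the 6 mesoderm markers at 26.8 to 28.0 and 20.6 to 23.2. The 7 fibroblast markers, nearly all Fn1, summed to 815 to 1000 CPM at 1 h and 518 to 813 CPM at 2 h. The 2-cell-like list lay at 4.78 to 5.45 CPM and 2.27 to 8.0 CPM with Tcstv1 at 0, and the neural list at 131 to 138 CPM and 114 to 144 CPM with Neurog2 at 0. The part of these shifts in the results below was not tested. Totals ran from 19260555 to 24307485 counts at 1 h and from 24192790 to 27225909 at 2 h. Between libraries, log2 CPM correlated at 0.994 to 0.995 within 1 h and at 0.980 to 0.992 within 2 h. Replicate A stood apart from the other 2 h libraries. On the first principal component, which held 51.9% of the variance, the 1 h libraries lay between -28.7 and -18.8, and 2 h replicates B, C and A lay at -7.45, 16.2 and 58.2. The 2 h replicate B thus lay nearest to 1 h, and replicate A farthest from it.

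Of 15933 genes tested, 1050 (6.59%) differed between 1 h and 2 h at an adjusted p under 0.05 by edgeR's quasi-likelihood test with Benjamini-Hochberg adjustment. At 2 h, 432 of them (2.71% of the tested genes) were higher and 618 (3.88%) were lower. These genes are called higher or lower below. A change of 2-fold or more was called for 84 genes (0.527%), 28 higher and 56 lower. The 3 libraries of 2 h lay wholly above those of 1 h for 2811 genes (17.6%) and wholly below for 3299 (20.7%), so that a lack of overlap by itself was common. In bulk RNA, fewer cells that express a gene and less RNA per cell cannot be told apart. Without 2 h replicate A, 492 of 16384 tested genes (3.0%) were called, 159 higher and 333 lower, and 363 were among the 1050. Each other library also moved the count. It was 26, 75 and 92 without 1 h replicates A, B and C, 3340 without 2 h replicate B, and 28 without 2 h replicate C. Fitted without the other times, the 6 libraries gave 17 called genes, 1 higher and 16 lower. Of the 1050 called genes 41.1% were higher, and DESeq2 on the same 15 libraries called 2167 genes, 53.3% of them higher. With the replicate letter in the model 337 genes were called, 20.5% of them higher. The count thus depended strongly on the libraries and on the model. All 1050 genes kept their direction in each fit that left out 1 library. Those fits share their libraries with the fit that chose the genes, so a kept direction is no separate check. Once loess curves on GC content and length had been taken out, 1043 of the 1050 kept it.

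The calls that held whichever library was left out were all decreases. They comprised 24 genes, chosen after their values were seen: Chac1, Ralgds, Junb, Slc38a2, Herpud1, Zfp296, Nr1d1, Socs3, Egr1, Lpin1, Dusp7, Zcchc2, Dcun1d4, Parp11, Bahd1, Slc45a4, Mafg, Syvn1, Ccsap, Tnfrsf10b, Glis2, Arhgef18, Klf3 and Phf13. Their log2 fold changes ran from -2.84 for Chac1 to -0.66 for Phf13. All 24 were also called with the replicate letter in the model and once loess curves on GC content and length had been taken out, and 10 were called when the 6 libraries were fitted without the other times. Among them are genes of transcription factors (Junb, Egr1, Mafg, Klf3, Glis2 and Zfp296), the nuclear receptor Nr1d1, the JAK inhibitor Socs3, the ERK phosphatase Dusp7 and the death receptor Tnfrsf10b. Ralgds, the gene of an activator of RAL GTPases, stood at 10.5, 9.80 and 9.20 CPM in the 1 h libraries and 3.70, 5.02 and 3.62 CPM in the 2 h libraries (log2 fold change -1.25 ± 0.14 (SE), adjusted p = 0.00126). Lpin1, the gene of a phosphatidate phosphatase, stood at 37.4, 31.5 and 29.02 CPM at 1 h and 17.9, 18.8 and 13.97 CPM at 2 h (log2 fold change -0.95 ± 0.15 (SE), adjusted p = 0.00477). In both genes every 2 h library lay below every 1 h library. Of the 24, Junb, Herpud1, Zfp296, Nr1d1, Syvn1, Ccsap, Glis2 and Klf3 overlap a gene on the opposite strand in the reference annotation, and Parp11, Mafg, Syvn1 and Klf3 overlap one on the same strand, and reads may have been shared there, since the handling of strand is not given in the sources used here.

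Chac1, which encodes an enzyme that breaks down glutathione, showed the largest fall among the named genes. It stood at 7.35, 8.43 and 5.94 CPM in the 1 h libraries and 1.55, 1.06 and 0.448 CPM in the 2 h libraries, with no overlap (log2 fold change -2.84 ± 0.34 (SE), adjusted p = 0.00148). Its level had been 11.5 ± 1.59 CPM (SD, n = 3) at 0 h and was 0.423 ± 0.275 CPM at 5 h. The amino-acid transporter gene Slc38a2 was far more abundant, at 209.9, 193 and 184 CPM in the 1 h libraries and 88.8, 99.8 and 78.02 CPM in the 2 h libraries (log2 fold change -1.14 ± 0.16 (SE), adjusted p = 0.0035). All 3 libraries of 2 h lay far below the lowest of 1 h, and the 5 h mean was 129 ± 32.2 CPM. Herpud1, whose product takes part in the disposal of misfolded ER proteins, stood at 16.5, 18.2 and 17.3 CPM in the 1 h libraries and 10.1, 7.28 and 6.39 CPM in the 2 h libraries (log2 fold change -1.14 ± 0.15 (SE), adjusted p = 0.00316). The ubiquitin ligase gene of the same pathway, Syvn1, changed from 35.5, 30.6 and 30.3 CPM to 18.4, 21.1 and 15.4 CPM (log2 fold change -0.81 ± 0.11 (SE), adjusted p = 0.0035). For Herpud1 the groups were also separate, and 2 h replicate A was the highest of its group, as it was for Chac1.

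Beyond these, the list of ATF4 and amino-acid response genes moved in part. Of its 39 tested members 5 (12.8%) fell and 0 rose, against 3.88% of all tested genes called lower. The median log2 fold change was -0.19, against -0.01 over all tested genes. Besides Chac1 and Slc38a2, the fallen members were Gdf15, a secreted stress hormone (-1.34, adjusted p = 0.0272), the leucine sensor Sesn2 (-0.83, adjusted p = 0.0077), and Cebpg, a partner of ATF4 (-0.49, adjusted p = 0.0323), chosen after their values were seen. Sesn2 stood at 114, 98.5 and 98.2 CPM at 1 h and 72.9, 57.8 and 44.2 CPM at 2 h, without overlap. Atf4 itself did not pass the test (log2 fold change -0.34 ± 0.14 (SE), adjusted p = 0.11). Neither did Ddit3, which encodes the stress factor CHOP (-0.25, adjusted p = 0.396), or the asparagine synthetase gene Asns (0.23, adjusted p = 0.256). None of the 20 cytosolic aminoacyl-tRNA synthetase genes was called by edgeR, 3 had an unadjusted p under 0.05, and DESeq2 called 1. Of the 20 genes for ER chaperones and the unfolded protein response, Herpud1 was the 1 called (5.0%, against 6.59% of all tested genes). Hspa5, the main ER chaperone, had a log2 fold change of 0.10 (adjusted p = 0.528). The ATF4 list fitted without 2 h replicate A had 7 members called lower, Cebpg not among them (adjusted p = 0.066), and a median of -0.32.

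The stretches before the starts of Chac1, Herpud1 and Syvn1, which fell together, are shown, each with a match to a searched motif. That of Zfp36, an mRNA decay gene described below, is shown likewise. Other motifs, and other forms of the ER stress element, were not searched and would stand in lower case. Capitals mark the match, and each stretch is 110 bases long, from RefSeq on GRCm38.p6, read 5′ to 3′ in the direction of the gene.
Chac1: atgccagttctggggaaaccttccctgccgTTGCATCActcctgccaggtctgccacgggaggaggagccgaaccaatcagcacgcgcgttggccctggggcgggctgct
Herpud1: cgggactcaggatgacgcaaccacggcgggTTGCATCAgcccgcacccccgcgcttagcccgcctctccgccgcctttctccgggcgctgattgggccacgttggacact
Syvn1: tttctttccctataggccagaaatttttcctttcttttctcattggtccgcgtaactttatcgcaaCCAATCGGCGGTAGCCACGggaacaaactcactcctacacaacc
Zfp36: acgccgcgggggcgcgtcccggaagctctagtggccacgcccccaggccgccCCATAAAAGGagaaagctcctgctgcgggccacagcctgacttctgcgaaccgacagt
The Chac1 stretch is chr2:119351019-119351128, plus strand, and the Herpud1 stretch is chr8:94386287-94386396, plus strand. In both, the capitals are the C/EBP-ATF response element, searched as TGATGNAA and present here on the opposite strand. Syvn1 (chr19:6046466-6046575, plus strand) holds the ER stress response element, CCAAT and CCACG with 9 bases of any kind between them, and Zfp36 (chr7:28379229-28379338, minus strand) holds a CArG box, the site known for the serum response factor. In the 250 bases before the start, the promoters of 10744 tested genes held TGATGNAA in 2.33% of genes, the ER stress response element in 0.195% and the CArG box in 1.4%. Over all 32851 mouse promoters the shares were 3.45%, 0.113% and 1.47%. Every motif was searched on both strands, and none contains another. Of the 24 genes above, 20 had a promoter in the table. TGATGNAA was in those of Chac1 and Herpud1 (10.0%), the ER stress response element in that of Syvn1 and a CArG box in that of Ccsap (5.0% each). The cAMP response element TGACGTCA and the STAT site TTCCNGGAA were in none of the 20, against 3.03% and 1.22% of the matched tested genes and 1.55% and 0.913% of all promoters. TGATGNAA was in the promoters of 3.11% of the 482 matched genes called lower and of 2.8% of the 321 called higher, and the CArG box in those of 1.24% and 1.56%. A match is a description of the letters and was not tested as a site of binding.

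Several immediate-early genes, most of them genes of transcription factors, fell from 1 h to 2 h. Of 22 tested members of the list 7 (31.8%) fell and 0 rose, against 3.88% of all tested genes called lower. The median log2 fold change was -0.39. Egr1, a zinc-finger factor induced by growth signals, was near absent before the drug (1.12 ± 0.103 CPM at 0 h, SD, n = 3). It stood at 49.3, 44.8 and 42.7 CPM in the 1 h libraries and 28.9, 21.4 and 18.9 CPM in the 2 h libraries (log2 fold change -0.99 ± 0.15 (SE), adjusted p = 0.00477), and at 0.424 ± 0.133 CPM at 5 h. The 2 h libraries lay far above 0 h and below every 1 h library. Fos, which encodes a subunit of the AP-1 factor, had the largest fall of the list, at 6.03, 7.02 and 5.03 CPM in the 1 h libraries and 2.37, 2.37 and 2.28 CPM in the 2 h libraries (log2 fold change -1.36 ± 0.24 (SE), adjusted p = 0.0091). Its 0 h level was 1.17 ± 0.26 CPM, so that the 2 h libraries stood above it as well. Junb, the gene of another AP-1 subunit, stood at 29.02, 32.5 and 32.7 CPM in the 1 h libraries and 17.3, 12.7 and 12.8 CPM in the 2 h libraries (log2 fold change -1.14 ± 0.13 (SE), adjusted p = 0.00126). At 0 h it had been 17.4 ± 0.96 CPM and at 5 h it was 30.3 ± 3.06 CPM, so that the 2 h libraries lay at or below the 0 h mean and well below 5 h.

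**Figure D1:**
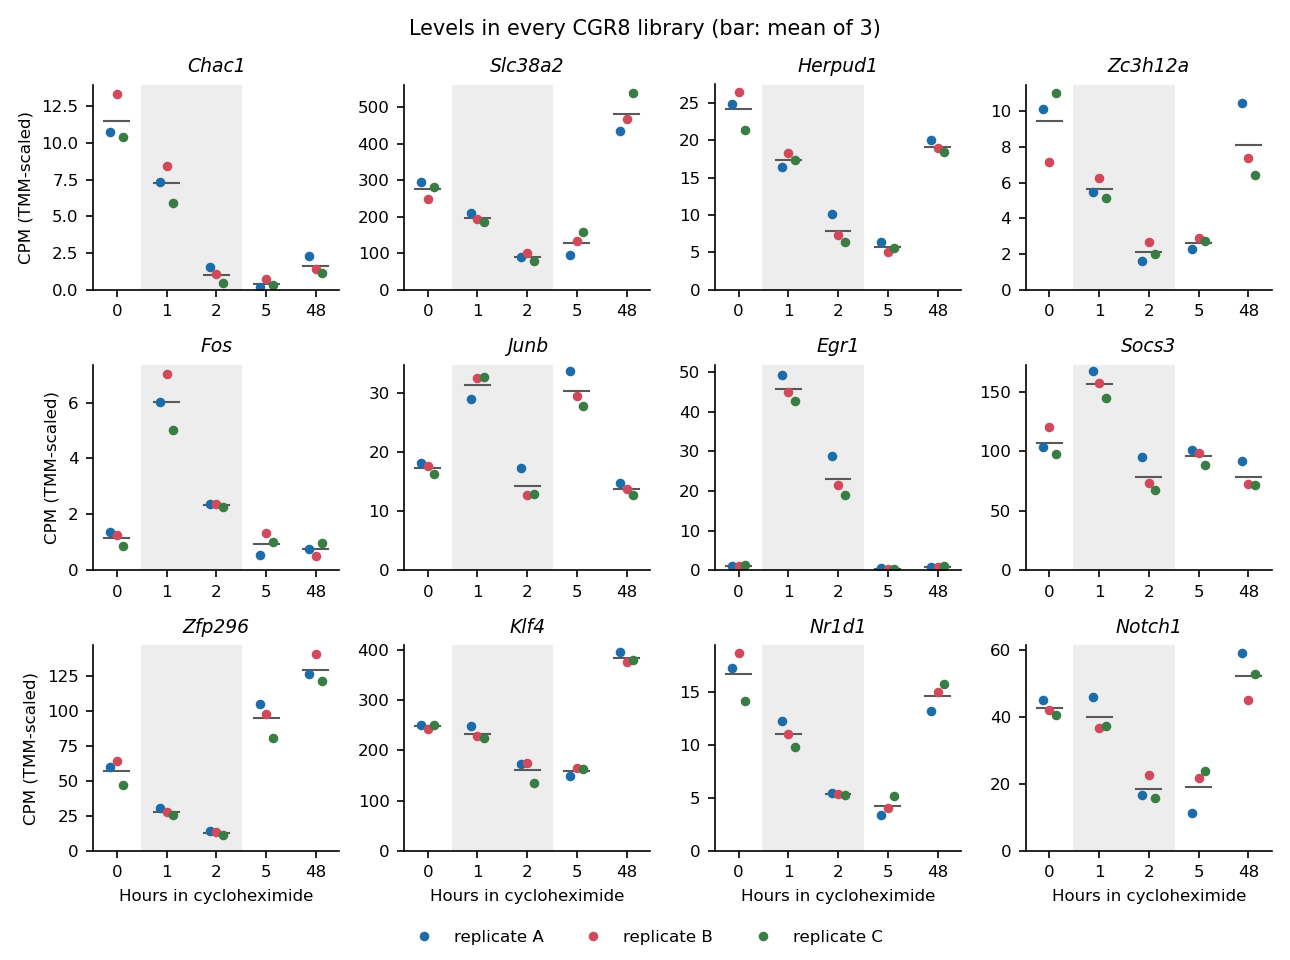
Levels of 12 genes that fell from 1 h to 2 h, in CPM scaled by TMM factors (vertical axis, linear from 0), at 0, 1, 2, 5 and 48 h of cycloheximide (horizontal axis, not to scale) in CGR8. Points are libraries, coloured by replicate letter, bars are means of 3, and the shaded band holds the compared times, in which the 2 h points of each gene lie below its 1 h points.

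The other fallen members, chosen after their values were seen, included Nab2, the gene of a repressor that binds EGR proteins. Nab2 stood at 5.78, 5.96 and 4.88 CPM at 1 h and 2.71, 2.37 and 2.91 CPM at 2 h (log2 fold change -1.05 ± 0.20 (SE), adjusted p = 0.0135). The nuclear receptor gene Nr4a1 had a log2 fold change of -0.72 (adjusted p = 0.0133), the small MAF factor Mafg -0.81 (adjusted p = 0.00387) and Arc -0.63 (adjusted p = 0.0427). At 1 h these 4 genes lay near or below their 0 h levels, unlike Egr1, Fos and Junb. Nab2 too overlaps a gene on the opposite strand. Fosb had a fitted change of similar size to Fos (-1.22) at a low level, and did not pass the test (adjusted p = 0.101). Jun, Ier2, Atf3 and Srf did not pass either, with log2 fold changes of -0.47, -0.27, -0.29 and -0.03. Without 2 h replicate A, 8 members were called lower, and with the trends on GC content and length removed 7 were, at medians of -0.53 and -0.38. Only 3 were called lower without 1 h replicate A, and 3 without 2 h replicate C. Fos was not called in either of those fits, or without 1 h replicate B (adjusted p = 0.0788, 0.0652 and 0.0562).

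Genes of mRNA decay regulators fell in the same step. These proteins bind AU-rich or stem-loop elements, or recruit the deadenylases that shorten the tail of an mRNA. Of 14 tested, 6 (42.9%) were lower and 0 higher, with a median of -0.57, against 3.88% of all tested genes called lower. Zc3h12a, the gene of the endonuclease Regnase-1, stood at 5.49, 6.27 and 5.15 CPM in the 1 h libraries and 1.63, 2.69 and 1.98 CPM in the 2 h libraries (log2 fold change -1.41 ± 0.23 (SE), adjusted p = 0.0077). All 2 h libraries lay well below the lowest 1 h library. Of the ZFP36 family, which bind AU-rich elements, Zfp36 stood at 5.93, 5.74 and 5.70 CPM at 1 h and 3.87, 2.97 and 2.61 CPM at 2 h (log2 fold change -0.88 ± 0.18 (SE), adjusted p = 0.0209). Zfp36l1, the most abundant of the family, stood at 173, 173 and 167 CPM at 1 h and 118, 126 and 101 CPM at 2 h (log2 fold change -0.57 ± 0.12 (SE), adjusted p = 0.0237). Zfp36l2 (-0.58, adjusted p = 0.0437), the deadenylase adaptor Btg2 (-0.56, adjusted p = 0.0266) and Tob2, of the same family as Btg2 (-0.65, adjusted p = 0.0145), were lower too. All of these groups were separate, and members other than Zc3h12a were chosen after their values were seen. Rc3h1 and Rc3h2, the genes of the Roquin proteins, had changes of -0.66 and -0.60 that did not pass (adjusted p = 0.0548 and 0.166). Zfp36l2 was not called without 2 h replicate A (adjusted p = 0.0604). With trends on GC content and length removed 5 members were called lower. The fit that left out 2 h replicate A called 5 lower and 1 higher, the one without 1 h replicate A called 1 lower, and the one without 2 h replicate C called 0.

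In the LIF pathway a feedback inhibitor fell most. Socs3, which blocks JAK and is a direct target of STAT3, stood at 167, 157 and 145 CPM in the 1 h libraries and 94.8, 73.6 and 67.3 CPM in the 2 h libraries (log2 fold change -0.99 ± 0.14 (SE), adjusted p = 0.0035). It was 107 ± 11.7 CPM at 0 h and 95.9 ± 6.65 CPM at 5 h, so that its 1 h libraries stood above those of 0, 2 and 5 h. Of the 13 tested genes of LIF and STAT3 signalling 3 fell and 0 rose (median -0.38), and with the trends on GC content and length removed 2 were called lower and the median was -0.10. The others were Socs2 (-0.47, adjusted p = 0.0213) and Stat3 (-0.40, adjusted p = 0.0441), both chosen after their values were seen. Stat3 was not called without 2 h replicate A (adjusted p = 0.11). The receptor genes Lifr and Il6st had changes of -0.51 and -0.22 that did not pass. Of 15 Kruppel-like factor genes 4 fell and 0 rose (median -0.40), and Klf13 fell most, at 75.2, 64.1 and 60.7 CPM at 1 h and 42.7, 37.5 and 28.7 CPM at 2 h (log2 fold change -0.88 ± 0.14 (SE), adjusted p = 0.0077). Klf3 (-0.67), Klf4 and Klf5 were the rest. The shares called were 23.1% of the LIF list and 26.7% of the Kruppel-like list, all lower, against 3.88% of all tested genes called lower.

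Of the 18 transcription factors of the naive state, 3 (16.7%) fell and 0 rose, against 3.88% of all tested genes called lower. Zfp296, a zinc-finger gene of early embryonic cells, stood at 30.7, 27.95 and 25.4 CPM in the 1 h libraries and 14.1, 13.01 and 11.4 CPM in the 2 h libraries (log2 fold change -1.13 ± 0.14 (SE), adjusted p = 0.00206). Its means were 57.1 ± 8.98 CPM at 0 h, 28.01 ± 2.64 CPM at 1 h, 12.8 ± 1.35 CPM at 2 h and 94.7 ± 12.7 CPM at 5 h, and its 2 h libraries were the lowest of these times. Klf4, a reprogramming factor, stood at 248, 228 and 224 CPM at 1 h and 172, 175 and 135 CPM at 2 h (log2 fold change -0.54 ± 0.10 (SE), adjusted p = 0.0133). Klf5 stood at 147, 134 and 131 CPM at 1 h and 113, 111 and 87.4 CPM at 2 h (log2 fold change -0.40 ± 0.11 (SE), adjusted p = 0.042), and both had separate groups. Zfp296 overlaps a gene on the opposite strand, and Klf4 and Klf5 overlap none. The core factors of pluripotency did not pass the test. Pou5f1, which encodes OCT4, stood at 548, 607 and 607 CPM at 1 h and 631, 655 and 828 CPM at 2 h (log2 fold change 0.26, adjusted p = 0.248). Nanog stood at 733, 822 and 834 CPM at 1 h and 775, 853 and 984 CPM at 2 h (0.13, adjusted p = 0.435), and its groups overlapped. Sox2 stood at 324, 325 and 314 CPM at 1 h and 311, 309.8 and 283 CPM at 2 h (-0.09, adjusted p = 0.509), a small difference without overlap. Of the remainder, Tfcp2l1 (-0.46), Zfp281 (-0.39), Gbx2 (-0.36), Esrrb (-0.25), Tbx3 (-0.24), Nr5a2 (-0.24), Sall4 (-0.11) and Klf2 (-0.10) had negative fitted changes. Prdm14 (0.22), Tcl1 (0.24), Zfp42 (0.24) and Nr0b1 (0.33) had positive ones, and none of these 12 was called in the main edgeR fit. DESeq2 called Zfp42 (adjusted p = 0.0243), and voom with sample weights called Gbx2 and Nr0b1 (adjusted p = 0.0302 and 0.0461). With no filter on low counts edgeR called Tfcp2l1 lower (adjusted p = 0.0164). Without 2 h replicate B it called Tfcp2l1 lower and Zfp42 higher (adjusted p = 0.0366 and 0.0485). The list median was -0.17, and -0.04 with the GC and length trends removed. Without 2 h replicate A, 4 of the factors were called lower, Gbx2 being the addition (adjusted p = 0.024).

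**Figure D2:**
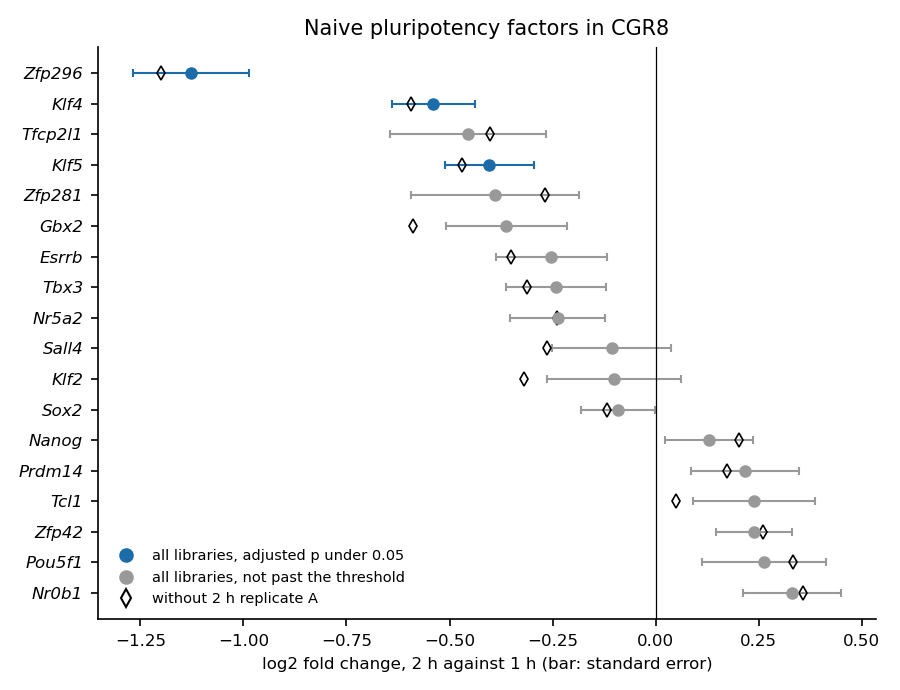
Fitted log2 fold changes from 1 h to 2 h (horizontal axis) of 18 naive pluripotency factors (vertical axis) in CGR8. Filled circles with standard errors are the fit to all libraries, blue where the adjusted p is under 0.05, and open diamonds are the fit without 2 h replicate A. Zfp296, Klf4 and Klf5 are the 3 blue points, all left of 0.

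Of 20 other stem cell marker genes edgeR called 1 higher and 0 lower (5.0%, against 6.59% of all tested genes), with a median of 0.32. The number called depended on the tool and the libraries: 14 had an unadjusted p under 0.05, DESeq2 called 10, and edgeR called 9 higher and 1 lower once 2 h replicate B was left out. The 2 h libraries lay wholly above those of 1 h for 13 of them, against 17.6% of all tested genes. The 1 that rose was Eras, a RAS family gene of embryonic stem cells, at 15.1, 18.3 and 18.9 CPM at 1 h and 29.2, 23.9 and 33.9 CPM at 2 h (log2 fold change 0.73 ± 0.20 (SE), adjusted p = 0.0441). It was not called without 2 h replicate A (adjusted p = 0.0751). Among 14 genes of the formative and primed epiblast, Foxd3 (-0.50, adjusted p = 0.0482) and Cdh2, which encodes N-cadherin (-0.44, adjusted p = 0.0437), were lower. Cdh2 was not called without 2 h replicate A (adjusted p = 0.0608), and no gene of the list was called with the trends on GC content and length removed (Foxd3 adjusted p = 0.121). The groups of Foxd3 overlapped, at 33.2, 32.8 and 26.03 CPM at 1 h and 26.2, 21.3 and 17.4 CPM at 2 h. Otx2, a marker of the exit from the naive state, had a change of 0.66 that did not pass (adjusted p = 0.0557). Tet3, an enzyme that oxidises methylated cytosine, was the 1 called of 10 genes of DNA methylation (log2 fold change -1.15 ± 0.26 (SE), adjusted p = 0.0287), at a low level of 4.61, 3.18 and 3.70 CPM at 1 h and 1.63, 2.05 and 1.46 CPM at 2 h. It was not called with the same trends removed (-0.68, adjusted p = 0.0547). The shares called were 14.3% of the epiblast list and 10.0% of the DNA methylation list, against 6.59% of all tested genes.

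Signalling genes outside the LIF pathway were lower in part. The shares called were 23.1% (Notch), 15.8% (ERK feedback), 12.5% (Wnt) and 14.3% (BMP and TGF-beta), all lower, against 3.88% of all tested genes called lower. Of 13 Notch pathway genes 3 fell and 0 rose (median -0.59). The receptor gene Notch1 stood at 46.1, 36.7 and 37.4 CPM at 1 h and 16.6, 22.7 and 15.9 CPM at 2 h (log2 fold change -1.12 ± 0.21 (SE), adjusted p = 0.0146), and the ligand genes Jag1 (-0.98, adjusted p = 0.0077) and Jag2 (-0.82, adjusted p = 0.0205) were lower too. The groups of Notch1 were separate, and its annotation overlaps genes on both strands. Dusp7, an ERK phosphatase gene, stood at 9.17, 8.48 and 8.85 CPM at 1 h and 4.56, 5.27 and 3.88 CPM at 2 h (log2 fold change -0.95 ± 0.14 (SE), adjusted p = 0.00456). Of 19 genes of ERK feedback 3 fell (median -0.14), the others being Spry4 and Il17rd. With the trends on GC content and length removed the median was -0.008. In that fit, and in the fit without 1 h replicate A, Dusp7 was the 1 called lower. Among 16 Wnt targets, Znrf3, which removes Wnt receptors from the cell surface (-0.65, adjusted p = 0.037), and Axin2 (-0.42, adjusted p = 0.0383) fell. With trends on GC content and length removed, 0 of the 16 were called lower and 1 higher, the list median went from -0.11 to -0.01, and Znrf3 had an adjusted p of 0.0719. Of 14 genes of BMP and TGF-beta feedback, Id1, a direct BMP target, fell from 4.41, 4.20 and 3.85 CPM to 1.59, 1.87 and 2.39 CPM (log2 fold change -1.08 ± 0.24 (SE), adjusted p = 0.0266), and Ski fell (-0.56, adjusted p = 0.0402). Id2 and Id3 had changes of -0.10 and 0.41 and did not pass. Il17rd, Znrf3, Axin2 and Id1 were not called without 2 h replicate A (adjusted p = 0.1, 0.0669, 0.0807 and 0.0547). Members other than Notch1, Dusp7, Znrf3 and Id1 were chosen after their values were seen.

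The clock, MYC, p53 and apoptosis lists each held a few genes that fell and none that rose, and their medians were -0.26, -0.31, -0.20 and 0.20. The shares called were 20.0%, 16.7%, 19.2% and 13.3%, against 6.59% of all tested genes, and 9 of the 15 BCL2 family genes had positive fitted changes. Nr1d1, which encodes the repressor REV-ERB alpha, stood at 12.2, 10.996 and 9.83 CPM at 1 h and 5.42, 5.34 and 5.27 CPM at 2 h (log2 fold change -1.04 ± 0.16 (SE), adjusted p = 0.00459). The 2 h libraries lay within a very narrow range, well under 1 h. Of 15 clock genes 3 fell, the others being Ciart (-0.74) and Hlf (-0.67). Mnt, the gene of a repressor that pairs with MAX, stood at 51.95, 48.4 and 45.7 CPM at 1 h and 35.3, 31.2 and 21.7 CPM at 2 h (log2 fold change -0.73 ± 0.14 (SE), adjusted p = 0.0137), and Mlxip fell as well (-0.46, adjusted p = 0.0451). Myc itself did not pass (adjusted p = 0.991), at 49.8, 51.1 and 50.5 CPM at 1 h and 54.6, 52.4 and 44.3 CPM at 2 h. Of 26 p53 targets 5 fell: the polymerase gene Polk (log2 fold change -1.04 ± 0.22 (SE), adjusted p = 0.0236), Tnfrsf10b (-0.76), Zmat3 (-0.64), Plk2 (-0.59) and Plk3 (-0.45). Cdkn1a and Mdm2, the best known p53 targets, had changes of -0.24 and -0.17 and did not pass (adjusted p = 0.154 and 0.202). In the BCL2 family of 15 genes, Bcl2l2 (log2 fold change -0.75 ± 0.18 (SE), adjusted p = 0.0331) and Bcl2l11, which encodes BIM (-0.45, adjusted p = 0.0407), fell. Mcl1, the gene of a very short-lived survival protein, had a change of 0.27 (adjusted p = 0.055). Hlf, Mlxip, Plk3, Bcl2l2 and Bcl2l11 were not called without 2 h replicate A (adjusted p = 0.0611, 0.1, 0.0764, 0.067 and 0.0846). Members other than Nr1d1, Mnt, Polk and Bcl2l2 were chosen after their values were seen.

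Genes for the ribosome, the mitochondrion and the proteasome were among those that rose, and no member of these lists fell. Of 78 cytosolic ribosomal protein genes 20 (25.6%) rose and 0 fell (median 0.54), against 2.71% of all tested genes called higher. For 72 of them the 2 h libraries lay wholly above those of 1 h, against 17.6% of all tested genes. Rps14, of the small subunit, stood at 792, 949.9 and 986 CPM at 1 h and 2005, 1163 and 1698 CPM at 2 h (log2 fold change 0.83 ± 0.20 (SE), adjusted p = 0.0364). Rps27a, which is made as a fusion with ubiquitin, stood at 918, 1104 and 1092 CPM at 1 h and 1723, 1359 and 2052 CPM at 2 h (log2 fold change 0.72 ± 0.16 (SE), adjusted p = 0.0287). Fau, whose product is also a fusion, to a ubiquitin-like protein, stood at 397, 443 and 481 CPM at 1 h and 825, 569.7 and 871 CPM at 2 h (log2 fold change 0.78 ± 0.20 (SE), adjusted p = 0.038). In all 3 genes 2 h replicate B lay above every 1 h library, and replicates A and C lay higher still. Ribosomal protein genes have many near-identical processed copies in the genome, and how shared reads were counted is not given in the sources used here, so these levels are uncertain.

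Mitochondrial ribosomal protein genes rose in 24 of 78 cases and fell in 0 (median 0.42). Mrpl54, of the large subunit, stood at 28.6, 32.5 and 34.2 CPM at 1 h and 59.3, 41.9 and 55.6 CPM at 2 h (log2 fold change 0.72 ± 0.17 (SE), adjusted p = 0.0331). Of 77 nuclear genes for respiratory chain subunits 13 rose and 0 fell (median 0.45), with Ndufb8 of complex I at 6.32, 6.45 and 6.49 CPM at 1 h and 14.3, 7.002 and 12.96 CPM at 2 h (log2 fold change 0.83 ± 0.23 (SE), adjusted p = 0.0451). The 9 tested mRNAs of the mitochondrial genome itself had a median of -0.19, and none was called by edgeR or DESeq2, with 1 at an unadjusted p under 0.05. Proteasome subunit genes rose in 11 of 32 cases and fell in 0 (median 0.40). Among them Psma6, of the core particle, stood at 252, 279 and 291 CPM at 1 h and 448, 312 and 487 CPM at 2 h (log2 fold change 0.60 ± 0.15 (SE), adjusted p = 0.0398). Of 35 DNA replication genes 6 rose (median 0.18), led by Gins2, a subunit of the replicative helicase, at 50.8, 59.04 and 63.02 CPM at 1 h and 86.4, 73.3 and 106 CPM at 2 h (log2 fold change 0.62 ± 0.17 (SE), adjusted p = 0.0427). All calls in these lists were rises. The shares were 30.8% (mitochondrial ribosomal), 16.9% (respiratory chain), 34.4% (proteasome) and 17.1% (DNA replication), against 2.71% of all tested genes called higher. Calls of rises depended on single libraries. Without 2 h replicate A the members called higher were 1 cytosolic and 1 mitochondrial ribosomal proteins, 3 respiratory chain, 0 proteasome and 2 DNA replication genes. Without 1 h replicate A no tested gene was called higher, against 26 called lower. With 2 h replicate A left out, the list medians were 0.46 for cytosolic and 0.39 for mitochondrial ribosomal proteins, 0.40 for the respiratory chain, 0.33 for the proteasome and 0.15 for DNA replication.

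**Figure D3:**
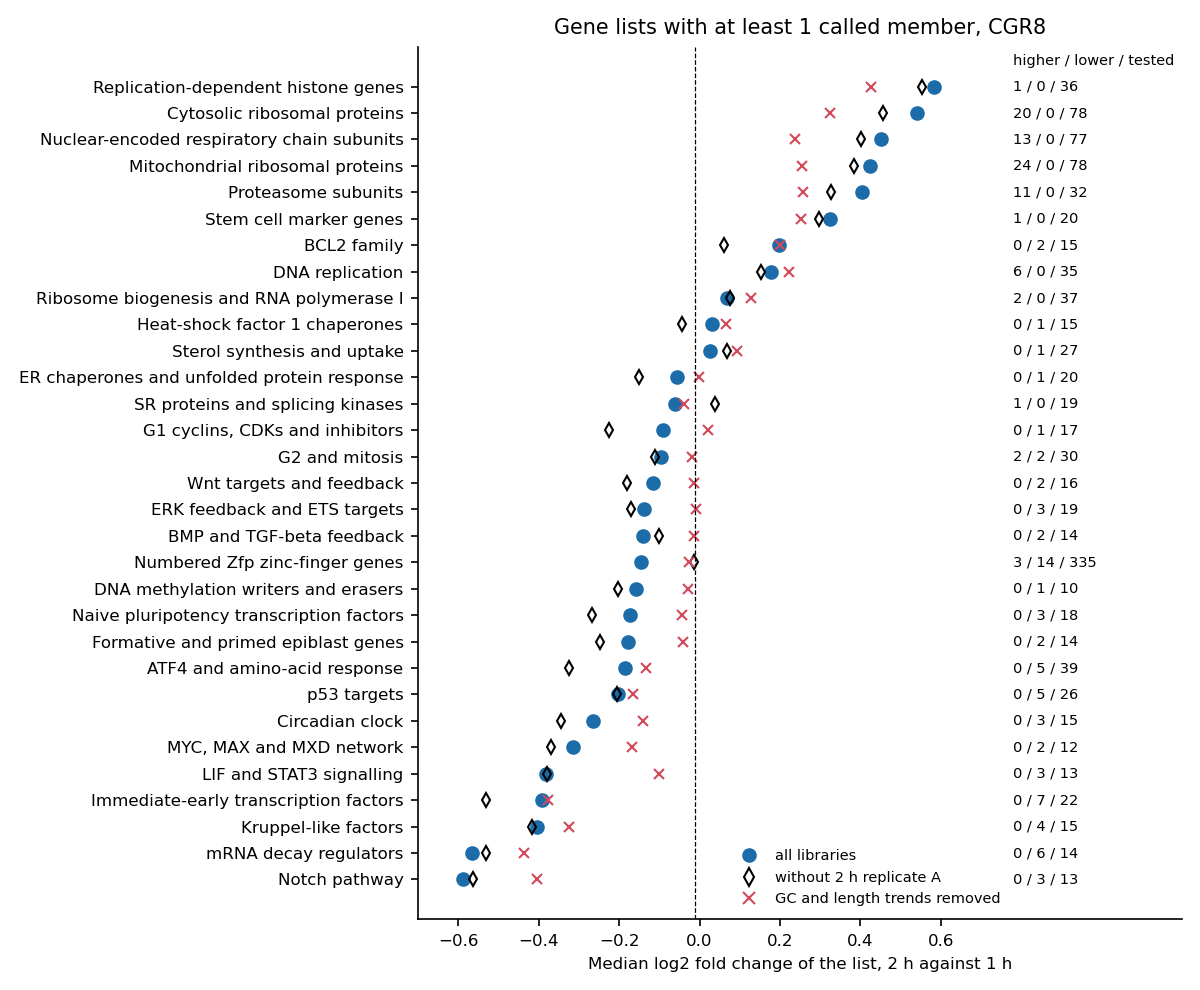
Median log2 fold change from 1 h to 2 h (horizontal axis) of each gene list with at least 1 called member (vertical axis), from all libraries (circles), without 2 h replicate A (diamonds) and with GC content and length trends removed (crosses). The dashed line is the median of all tested genes, -0.01, and the numbers at the right count members called higher, called lower and tested. The histone, ribosomal, respiratory and proteasome lists lie at the right with no member lower, and the Notch and mRNA decay lists at the left with no member higher.

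Besides Rps14, Rps27a, Fau, Ndufb8 and Eras, the called genes with the largest rises with no overlap and a mean of 10 CPM or more at either time were Gpx4, which repairs oxidised lipids, at 195, 224 and 243 CPM at 1 h and 431, 279.7 and 424 CPM at 2 h (log2 fold change 0.78 ± 0.21 (SE), adjusted p = 0.0425), and Elof1, a factor of transcription elongation (0.77). Also in this group were the peptidyl-tRNA hydrolase gene Ptrh2 (0.76), the membrane glycoprotein gene Pdpn (0.75) and the RNA methyltransferase gene Bcdin3d (0.75). Pdpn stood at 13.4, 14.4 and 14.3 CPM at 1 h and 22.2, 23.9 and 24.5 CPM at 2 h, where all 3 libraries of 2 h were close to each other and well above 1 h. Nhp2, a protein of small nucleolar RNA particles, rose (log2 fold change 0.69 ± 0.17 (SE), adjusted p = 0.0364). Polr1d was the other of 2 called among 37 genes of ribosome biogenesis (5.41%, against 6.59% of all tested genes). The 36 tested replication-dependent histone genes had a median of 0.58, and 34 of them were positive, against 7805 of 15933 tested genes. Only 1 of the 36 (2.78%) was called higher, against 2.71% of all tested genes. The list median was 0.37 at a mean of at least 5 CPM, and 0.43 with the trends on GC content and length removed. Calls of a rise also came for Srsf3, a splicing factor of the SR family (0.42, adjusted p = 0.0427), for the linker histone gene Hist1h1c (0.61, adjusted p = 0.0474) and for the centromere histone gene Cenpa (0.40, adjusted p = 0.0439). Zfp3 rose from a low level (0.79, adjusted p = 0.0287), and 3 of 335 numbered zinc-finger genes rose where 14 fell (5.07% called, against 6.59% of all tested genes). With the trends on GC content and length removed 14 of them were called higher and 7 lower, and with 2 h replicate A left out 5 and 7. Without 2 h replicate A, Rps14, Fau, Mrpl54, Ndufb8, Psma6, Gins2, Gpx4, Elof1, Nhp2, Polr1d, Srsf3 and Cenpa were not called, while Rps27a, Ptrh2, Pdpn, Bcdin3d, Hist1h1c and Zfp3 were. Txnip, a brake on glucose uptake that stood at 77.5 ± 2.73 CPM at 0 h, did not pass the test, with 264, 273 and 292 CPM at 1 h and 305, 332 and 348 CPM at 2 h (log2 fold change 0.25, adjusted p = 0.149).

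Transcript length moved with the direction of change. The median transcript length was 2809 bases over all tested genes, 1466 bases over those called higher and 5090 bases over those called lower. The genes were split by length into 5 groups of equal size. In the shortest group 6.45% were called higher and 0.225% lower, and in the longest 0.545% were called higher and 10.8% lower. The median log2 fold change ran through 0.33, 0.16, -0.01, -0.13 and -0.33 from the shortest to the longest group. The trend was present in each 2 h library. Between the shortest and longest groups the median difference from the 1 h mean went from 0.24 to -0.39 in replicate A, from 0.10 to -0.11 in replicate B and from 0.26 to -0.37 in replicate C. Over all 15 CGR8 libraries, the correlation across genes of a library's deviation with log2 length was 0.22 to 0.354 at 1 h, -0.404 to 0.0369 at 2 h, -0.559 to -0.269 at 5 h and 0.18 to 0.29 at 48 h. In NIH/3T3 the medians of the same groups from 1 h to 2 h were 0.25, 0.09, -0.03, -0.15 and -0.30.

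**Figure D4:**
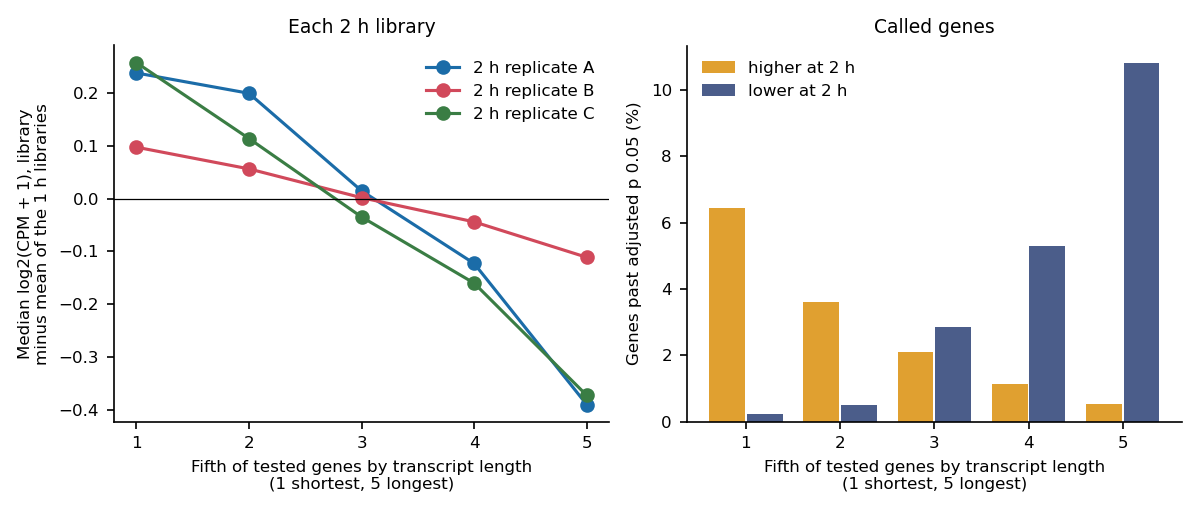
The tested genes were split into 5 groups of equal size by transcript length (horizontal axis, 1 shortest and 5 longest). Left, the median difference in log2(CPM + 1) of each 2 h library from the mean of the 1 h libraries. Right, the percentage of each group called higher (orange) or lower (blue) at 2 h. All 3 lines descend from left to right, replicate B least.

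Once a loess curve on GC content and length had been taken out of every library, 538 genes were called, 269 higher and 269 lower, of which 343 were among the 1050. The rising lists kept the sign of their medians at smaller sizes, 0.32 for cytosolic and 0.25 for mitochondrial ribosomal proteins, 0.24 for the respiratory chain and 0.26 for the proteasome. The members then called higher were 6, 10, 0 and 1, in the same order. The short transcripts Chac1, Junb, Zfp296 and Herpud1 kept their falls, with log2 fold changes of -2.95, -1.13, -1.21 and -1.24. The falls of long transcripts named for their size of change shrank, and of the 5 whose values follow Ankrd52 alone lost its call. Igsf9b, an adhesion protein gene, went from -1.07 to -0.51, and Notch1 from -1.12 to -0.62. Gse1, the gene of a chromatin protein, went from -1.07 to -0.64, and Cenpe, a mitotic motor gene, from -0.82 to -0.47. Ankrd52, a phosphatase subunit gene, went from -1.06 to -0.68 (adjusted p = 0.0687). Igsf9b, Cenpe and Ankrd52 were not called without 2 h replicate A (adjusted p = 0.0538, 0.0772 and 0.081). Among other named genes Klf5, Cenpa, Srsf3, Psma6, Hist1h1c, Eras and Ndufb8 were not called in this fit either (adjusted p = 0.0602, 0.127, 0.12, 0.101, 0.127, 0.0806 and 0.0766). The lower genes of this corrected fit had a median transcript length of 3474 bases, and the higher ones 3255. In their 3′ UTRs the AU-rich heptamer TATTTAT occurred 0.382 times per kilobase in the lower genes and 0.29 times in the higher ones, against 0.286 over all tested genes. For the genes called without this correction the order was the other way, at 0.291 in the lower and 0.31 in the higher ones.

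Several lists held no called gene. By edgeR none was called among 5 genes of TXNIP and the alpha-arrestins, 14 of NF-kB, 18 NRF2 targets, 11 of polyamine synthesis, 15 hosts of small nucleolar RNAs or 14 tubulins. In the same order, 3, 0, 6, 2, 0 and 4 had an unadjusted p under 0.05, and DESeq2 called 1, 0, 2, 1, 0 and 1. The 8 tested nuclear long noncoding RNAs had a median of -0.77 and none was called by edgeR or DESeq2, with 3 at an unadjusted p under 0.05. Of 30 genes of G2 and mitosis, Cenpa and Ccnb2 were called higher and Cenpe and Mki67 lower, with a median of -0.10, and none of these calls held without 2 h replicate A. Hspa1b, an inducible HSP70 gene, stood at 4.07, 3.27 and 3.62 CPM at 1 h and 2.11, 1.34 and 1.68 CPM at 2 h (log2 fold change -1.10 ± 0.22 (SE), adjusted p = 0.0192) and was the 1 called of 15 heat-shock genes. Ccni, a cyclin gene, was the 1 called of 17 genes of the G1 phase (log2 fold change -0.67 ± 0.14 (SE), adjusted p = 0.0209). The shares called were 13.3% (G2 and mitosis), 6.67% (heat shock) and 5.88% (G1), against 6.59% of all tested genes. The heat-shock and G1 shares were thus near that of all genes.

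The same step in NIH/3T3, which shares no library with CGR8, was tested for a different size or direction. Of 17549 genes, 101 (0.576%) differed between the lines in their change from 1 h to 2 h, 66 more negative in CGR8 and 35 more positive. Of 22 immediate-early genes 12 were called, each more negative in CGR8. Levels here were scaled across all 30 libraries. Junb rose in NIH/3T3, from 160.1, 199.7 and 121 CPM to 704, 524 and 519.7 CPM, and fell in CGR8 (difference -2.98 ± 0.21 (SE) on the log2 scale, adjusted p = 7.88e-10). Fosb stood at 5.03, 6.14 and 2.57 CPM and 20.7, 14.6 and 14.1 CPM in NIH/3T3 and at 0.339, 0.691 and 0.307 CPM and 0.215, 0.242 and 0.114 CPM in CGR8 (difference -3.03 ± 0.60 (SE) on the log2 scale, adjusted p = 0.00763). Atf3, Ier3, Csrnp1, Ier2, Ier5, Jun and Nr4a1 had positive changes in NIH/3T3 of 2.09, 1.26, 1.25, 0.92, 0.80, 0.64 and 0.77. In CGR8 the changes of the same genes were -0.27, -0.63, 0.07, -0.25, -0.29, -0.45 and -0.70. For Egr1 the difference was -1.14 ± 0.23 (SE, adjusted p = 0.00763), and its NIH/3T3 libraries lay at 591, 759 and 393 CPM and 735, 638 and 598 CPM.

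**Figure D5:**
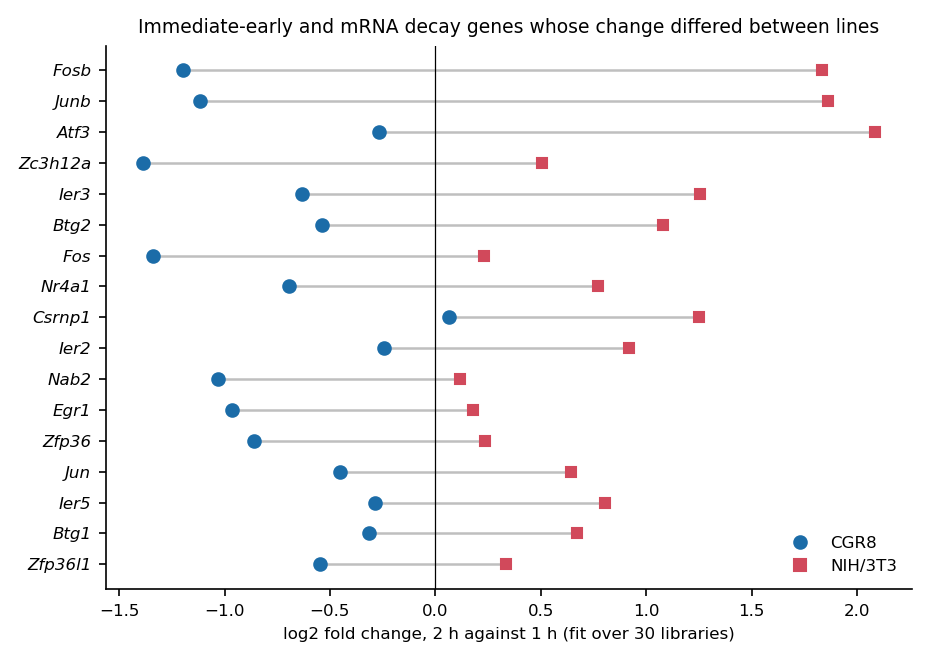
Log2 fold changes from 1 h to 2 h (horizontal axis) in CGR8 (circles) and NIH/3T3 (squares) for the 17 immediate-early and mRNA decay genes (vertical axis) whose change differed between the lines, from a fit over 30 libraries. Every circle lies to the left of its square, every square is right of 0, and every circle but that of Csrnp1 is left of 0.

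Of the mRNA decay regulators, Btg2, Zfp36l1, Btg1, Zc3h12a and Zfp36 differed, all more negative in CGR8. Btg2 stood at 71.5, 81.9 and 61.5 CPM and 153, 148 and 153 CPM in NIH/3T3, and at 18.9, 18.8 and 20.6 CPM and 16.2, 11.7 and 12.4 CPM in CGR8 (difference -1.62 ± 0.16 (SE) on the log2 scale, adjusted p = 6.49e-07). Socs3 (-1.28, adjusted p = 4.58e-05), Klf4 (-0.87, adjusted p = 0.00314), Id1 (-1.55, adjusted p = 0.00062), Nr1d1 (-1.72, adjusted p = 1.28e-05) and Herpud1 (-0.76, adjusted p = 0.0298) differed in the same direction. These genes were chosen after their values were seen. In the opposite direction, Plat, the gene of tissue plasminogen activator, and Cbx2, a Polycomb gene, had the largest differences among genes with at least 10 CPM in some group. Plat reached that level in NIH/3T3 alone. Plat stood at 45.3, 44.3 and 42.2 CPM and 35.7, 49.8 and 43.98 CPM in NIH/3T3 and rose in CGR8 from 0.339, 0.389 and 0.461 CPM to 0.989, 0.865 and 1.17 CPM (difference 1.34 ± 0.28 (SE) on the log2 scale, adjusted p = 0.0131). Cbx2 stood at 23.1, 20.6 and 22.4 CPM and 5.45, 7.62 and 6.98 CPM in NIH/3T3 and at 39.02, 35.99 and 37.8 CPM and 35.8, 28.5 and 23.2 CPM in CGR8 (difference 1.34 ± 0.19 (SE) on the log2 scale, adjusted p = 9.82e-05). None of 78 cytosolic and 78 mitochondrial ribosomal protein genes was called for a difference between the lines. Neither was any of 77 respiratory chain, 32 proteasome or 39 ATF4 list genes. Over all tested genes 0.576% were called, so these lists are too small for a lack of calls to show that the lines agree. NIH/3T3 alone had 2419 called genes of 13941 tested, 847 higher and 1572 lower. Among 12369 genes tested in both lines, 469 were called in both, 454 of them in the same direction. The shared calls were 49.4% of the CGR8 calls and 20.8% of the NIH/3T3 calls among those genes.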

How the data were processed

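RNA was measured by stranded mRNA sequencing, per the labels' protocols. The authors deposited raw counts per gene for all 30 libraries, with no other columns. STAR, DESeq2 and the build GRCm39 are named in the submitters' processing notes, and the counting tool, its use of strand and the annotation release are not given in the sources used here. Of 57186 identifiers 51880 (90.7%) matched a symbol in the GRCm38 annotation, which also gave transcript length, GC content and gene overlap. As that build differs from the authors', no gene coordinates are given beyond the promoters, from RefSeq's table.

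Replicates were taken from the labels. The main test was edgeR 4.0.16 (R 4.3.3) quasi-likelihood on the 15 CGR8 libraries, 1 coefficient per time, with TMM scaling, filterByExpr (minimum count 10, total 15) and Benjamini-Hochberg adjustment over all tested genes. Genes at an adjusted p under 0.05 were called, and a log2 fold change of 1 in size marked 2-fold. CPM are TMM-scaled, with a prior count of 2 in log2 values, except marker levels, scaled by library totals. The line difference was the interaction in 1 edgeR model of 30 libraries. Alternatives were DESeq2 1.42.0, voom with sample weights (limma 3.58.1), other scalings and filters, the 6 libraries alone, the replicate letter as a block, each library left out, and loess trends (span 0.4) on GC content and length removed, for which 97.8% of tested genes had values. The tests were checked on simulated data. Deviations of equal letters at 1 h and 2 h correlated at -0.0144, -0.123 and 0.148. These values cannot settle whether a letter marks a shared culture or day.

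Named genes were the 10 largest called rises and falls with at least 10 CPM and no overlap, the largest called member of each list in each direction, the naive factors, the 2 largest line differences each way, and Egr1, Txnip, Chac1 and Zfp296. A few genes that this rule names are not reported here. Members and lists were chosen with earlier results of these data known.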

Additional observations from a re-analysis of the deposited data

Results flagged for a closer look

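The 4 genes named for the comparison of the lines were chosen from those called by edgeR's interaction test. They were chosen for the size of the difference in their change from 1 h to 2 h. That they were called is thus no separate result. The difference, CGR8 minus NIH/3T3 on the log2 scale, was -3.03 for Fosb (adjusted p = 0.00763), whose CGR8 levels were under 1 CPM, and -2.98 for Junb (adjusted p = 7.88e-10). It was 1.34 for Plat (adjusted p = 0.013), whose CGR8 levels were 0.339 to 1.17 CPM, and 1.34 for Cbx2 (adjusted p = 9.82e-05). Junb and Cbx2 were called whichever of the 12 libraries was left out. Fosb was not called without CGR8 1 h replicate B. Plat was not called without CGR8 1 h replicate A or B, or without CGR8 2 h replicate C.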

How the results depend on the processing

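The count of 1050 called genes was 2167 with DESeq2, 2114 with voom and sample weights, 2443 with no filter on low counts, 1817 at a mean of at least 5 CPM, 17 with the 1 h and 2 h libraries alone, 337 with the replicate block and 538 with GC content and length trends removed. Leaving out 1 library gave 26 to 3340. The 84 genes of 2-fold or more became 184 with no filter, 18 at a mean of at least 5 CPM, 12 with the 1 h and 2 h libraries alone, 49 with the replicate block and 53 with the trends removed, and 7 to 299 with 1 library left out. The line difference, 101 genes, was 100 with the replicate block and 62 to 129 with 1 library left out, lowest without CGR8 1 h replicates A (65) and B (62). The cause of these shifts was not tested. Whether the letters mark a shared culture or day is not given, so the block was kept as an alternative. Of 48 called genes named for the step, 29 were still called with it. Rises not called with it included Fau, Gpx4, Elof1, Mrpl54, Psma6 and Gins2, and falls included Ankrd52, Bcl2l2, Znrf3, Foxd3 and Klf5. Among the genes named for the step, those called kept their direction in every alternative run, while Sall4 and Klf2 without 2 h replicate C, and Sall4 and Tbx3 with the trends removed, none of them called, had positive values in place of negative ones. With totals of 18216993 to 30503109 counts, a gene at 1 CPM rests on few reads, and 3 libraries a group limit the precision of every gene.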
